A study of Mus musculus with 12 samples.

Results

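Whole hearts of 2-month-old mice homozygous for c.T38>G in Lemd2 (KI/KI) were compared with hearts of WT littermates of the same age. The comparison covered every gene with enough reads. The series holds 12 libraries, of which these are 6, with 3 per genotype and 1 per mouse, and 14592 of its 24062 gene symbols passed the filter on low counts and were tested, while 4566 had no read in any of the 6. The KI/KI mice carry c.T38>G in every cell of the body, so the change is not limited to the heart. It was made by CRISPR/Cas9 with a donor oligonucleotide that also carries a silent change, in zygotes of a B6C3F1 hybrid, and founders were mated to C57BL/6N mice before heterozygotes were intercrossed. The other 6 libraries, from postnatal day 1 hearts with Lemd2 floxed or deleted in cardiomyocytes by a Myh6-driven Cre, appear here only as a contrast.

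LEMD2 is a protein of the inner nuclear membrane. It belongs to the family named after the LEM domain, a short fold through which LAP2, emerin, MAN1 and their relatives bind the chromatin protein BAF, and it takes part in sealing the nuclear envelope after mitosis and in its repair. Heart muscle, whose nuclei are deformed with every beat, is among the tissues that suffer most from inherited faults of this envelope.

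The edited base is shown in its reference surroundings to place the change. It lies in exon 1 of the gene, at position 27204381 of chromosome 17 (GRCm38, minus strand), and is coding base 38, with the A of the initiating ATG as base 1. The stretch below is the GENCODE coding sequence from base 24 to base 53, read 5′ to 3′ (17:27204366-27204395, minus strand), with base 38 in a capital letter. Its first base, base 24, is the site of the silent change in the donor (G to A) and is shown as in the reference. The substitution is T38G, which turns codon 13 from CTG into CGG and leucine into arginine inside the LEM domain.
Lemd2 coding sequence: gttgcggcgagagcTgcaggccctgggctt

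Lemd2 itself was transcribed from the edited allele at a slightly reduced level. It stood at 28.2, 30.7 and 29.7 CPM (reads scaled to a common library size after TMM normalization) in WT and at 22.8, 22.5 and 22.1 in KI/KI hearts, so the groups did not overlap and the KI/KI hearts barely differed among themselves. The log2 fold change, KI/KI minus WT throughout, was -0.39 (standard error 0.06, adjusted p = 0.181 with edgeR's quasi-likelihood test and 3.8e-04 with DESeq2).

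Each library held between 37063669 and 43140330 counted reads, and 3 reads, taken as the floor, correspond to between 0.0650 and 0.0850 CPM (counting error only). Libraries that stand apart were present in both groups. Marker transcripts of adipocytes summed to 1056 CPM in WT heart 3, against 104 and 87.0 in the other WT hearts and 230.3, 251.5 and 86.5 in KI/KI hearts 4, 5 and 6. Lung markers summed to 114 CPM in WT heart 3 and 37.1 in KI/KI heart 4, against 0.45 to 0.71 in the other 4 hearts. The 18 cardiomyocyte markers summed to between 92630 and 133200 CPM, so the labelled tissue was seen in every heart. Markers of atrial cardiomyocytes summed to 6204, 6530 and 6518 CPM in WT and 6570, 13270 and 9373 in KI/KI hearts 4, 5 and 6. Of these 12 markers, 2 lay above all WT hearts in all 3 KI/KI hearts (16.7%) and 1 below (8.33%). Over all tested genes the shares were 11.5% and 11%. The part of these transcripts in the results was not tested. Counts of list members without WT heart 3, KI/KI heart 4 or KI/KI heart 5 are given below for the lists they move most.

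Of 14592 tested genes, 0 (0%) had an adjusted p under 0.05 with edgeR's quasi-likelihood test, the minimum being 0.101. Before adjustment, 1301 genes were higher (8.92%) and 1062 lower (7.28%) at p under 0.05. DESeq2, the tool used for the study, called 306 genes higher (2.1% of its 14555 genes with an adjusted p) and 212 lower (1.46%) at an adjusted p under 0.05, 110 and 47 of them with a fold change above 2. limma (voom) called 0 in either direction. Without KI/KI heart 4, edgeR called 40 genes higher and 16 lower at an adjusted p under 0.05. Because the main test made no call, single genes are described below by their value in each heart. Their log2 fold changes carry standard errors from edgeR, and the adjusted p printed for a gene is that of DESeq2 unless another tool is named. In 1671 genes (11.5%) all 3 KI/KI hearts lay above all 3 WT hearts, and in 1601 (11%) below them. These shares are the background against which each gene list is read, together with a median log2 fold change of 0.00 over all tested genes. With a heart left out, fewer hearts have to be apart and the background is higher. Without WT heart 3, 21.4% of genes lay above and 21.5% below, without KI/KI heart 4 21.7% and 19.9%, and without KI/KI heart 5 14.3% and 14.3%. Single KI/KI hearts have a background of their own. In hearts 4, 5 and 6, 21.9%, 36.8% and 28.9% of genes lay above every WT heart, and 23.4%, 33.7% and 27.9% below.

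The 3 KI/KI hearts departed from WT to very different degrees. Heart 5 held 727 genes more than 2-fold above the WT mean and 329 more than 2-fold below it, heart 6 held 261 and 172, and heart 4 held 134 and 94. Across all tested genes the root mean square departure from the WT mean was 0.31 on the log2 scale in heart 4, 0.56 in heart 5 and 0.39 in heart 6. Set against the mean of the other 2 WT hearts, each WT heart itself departed by 0.35 to 0.42, so the value of heart 4 was below that of each WT heart, although the references differ (3 hearts for the KI/KI, 2 for the WT). On the first principal component, with 48.2% of the variance, the WT hearts stood at -26.5, -29.1 and -4.71, KI/KI heart 4 at -1.06, heart 6 at 14.8 and heart 5 at 46.6. The second component (19.5%) set WT heart 3, at 32.9, apart from the other 5, which lay between -12.1 and 8.55.

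The same order of hearts ran through single genes. Of the 1671 genes in which the KI/KI hearts lay above the WT hearts, heart 5 had the largest departure in 69.2% and heart 4 the smallest in 67.8%, and the full order of 5, then 6, then 4 was seen in 53.5%. Of the 1601 genes below the WT hearts, the corresponding shares were 59.8%, 62.3% and 45.2%. Among the 179 higher genes with a fold change above 2, the median departure was 0.83 in heart 4, 1.75 in heart 5 and 1.19 in heart 6 on the log2 scale. For the 90 lower ones it was -0.91, -1.62 and -1.21. Of those 179 genes, 66 exceeded 2-fold in heart 4, 131 in heart 6 and 173 in heart 5. These departures share the same WT hearts, and each heart is a single animal, so the differences between the 3 hearts have no replicate check.

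**Figure D1:**
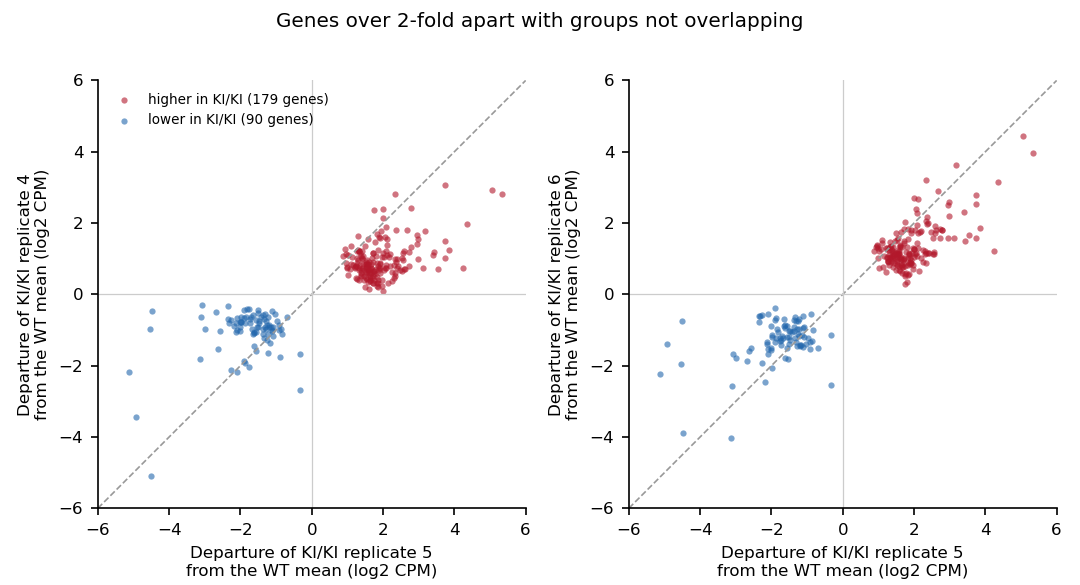
Departure from the WT mean, in log2 CPM, of each gene with a fold change above 2 and groups that did not overlap (179 higher, 90 lower). KI/KI heart 5 is on the horizontal axis of both panels, heart 4 on the vertical axis at left and heart 6 at right, and the dashed line marks equal departure. Most points of the left panel lie between the horizontal axis and the dashed line, and the median departure of higher genes was 0.83 in heart 4 and 1.75 in heart 5.

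Gene groups differed in how large the departure of heart 4 was beside that of heart 5. The lists described here were written from general knowledge of the heart. Earlier results of these data were known by then, so the lists are not independent of the data. The score of a list is the mean over its tested genes of the departure from the WT mean. For macrophage markers the score of heart 4 was 54.6% of that in heart 5, for calcium cycling genes 55.4%, for embryonic and denervated muscle genes 47.1% and for interferon-stimulated genes 46.5%. For stretch and hypertrophy genes it was 22.7%, for activated fibroblast markers 17.4%, for nuclear genes of oxidative phosphorylation 13.9%, for general fibroblast markers 13.2% and for collagens 7.90%. In oxidative phosphorylation heart 4 scored -0.06, within the WT scores of 0.08, 0.05 and -0.13. In collagens it scored 0.07, within the WT scores of -0.09, -0.10 and 0.19. In general fibroblast markers it scored 0.12, just above the WT scores of -0.03, -0.08 and 0.10. Of 61 lists with 5 or more tested genes, heart 5 had the largest score in 41 and heart 4 the smallest in 48. Among the 33 of these with a score beyond 0.3 in heart 5, a choice that favours that heart, the counts were 28 and 29.

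**Figure D2:**
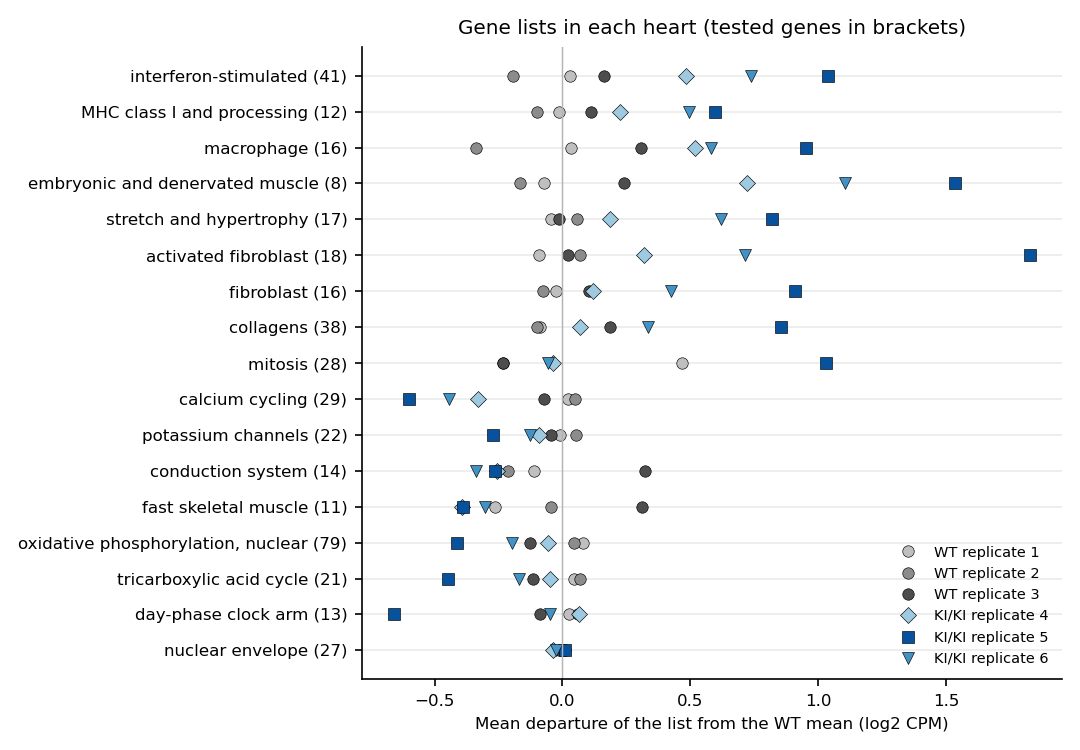
Mean departure of each gene list from the WT mean (log2 CPM, horizontal axis) in the 3 WT hearts (circles) and in KI/KI hearts 4 (diamonds), 5 (squares) and 6 (triangles). The number of tested genes stands in brackets. Interferon-stimulated genes had scores of 0.48, 1.04 and 0.74 in hearts 4, 5 and 6, collagens of 0.07, 0.86 and 0.33, and mitosis genes of -0.04, 1.03 and -0.06.

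Interferon-stimulated genes had the largest share of members apart between the genotypes among the 65 lists. Interferons signal through receptors to a transcription factor complex that includes STAT2 and IRF9, which binds a response element in the promoters of antiviral genes. Of 41 tested members, 40 had all 3 KI/KI hearts above all 3 WT hearts (97.6%, against 11.5% of all genes), all except Samd9l, and DESeq2 called 29 higher and 0 lower. The median log2 fold change was 0.74, and dropping any single heart kept it from 0.55 to 0.86. In heart 4 alone, 40 of the 41 exceeded every WT heart, where 21.9% of all genes did.

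Among the single members, Oas2, which makes the messenger that activates RNase L, stood at 14.6, 13.9 and 15.1 CPM in WT and 24.4, 34.0 and 35.5 in KI/KI hearts (log2 fold change 1.11, standard error 0.14, adjusted p = 4.0e-08). The lowest KI/KI heart was well above the highest WT heart. Irf7, the transcription factor that amplifies the response, stood at 10.9, 8.26 and 10.3 CPM in WT and 17.7, 26.4 and 22.1 in KI/KI hearts (1.17, standard error 0.17, adjusted p = 7.4e-07). Ifit1, which binds viral RNA, stood at 8.18, 7.88 and 9.46 against 14.1, 19.4 and 17.4 CPM (0.99, standard error 0.14). The neighbouring Ifit gene I830012O16Rik stood at 3.26, 2.75 and 3.83 against 5.79, 7.32 and 6.86 CPM. Ifi35 differed by only 0.41 on the log2 scale and was level over the KI/KI hearts, at 18.6, 19 and 18.4 CPM against 14.8, 13.4 and 14.1. Family members that resemble each other share reads, and how the counting split them is uncertain.

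Other layers of the pathway, picked after their values were seen, were measured too. The 21 listed interferon genes together held 10 reads in the 6 hearts, 1 to 3 per heart, which is at or under the floor in every heart. The receptor chains Ifnar1 and Ifnar2 overlapped between the groups, with log2 fold changes of 0.14 (standard error 0.09) and 0.06 (0.08). The RNA sensors Ifih1 and Ddx58 were higher by 0.57 (0.13) and 0.49 (0.12), the DNA sensor Mb21d1, which encodes cGAS, by 0.41 (0.14), and the nucleic acid sensor Zbp1 by 1.44 (0.38), in each case with groups that did not overlap. Stat2 and Irf9 were higher by 0.38 (0.10) and 0.41 (0.10), again without overlap.

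RefSeq promoters (GRCm38.p6, 250 bases before to 50 after the start) were searched for the core of the interferon response element, GAAANNGAAA on either strand, where N is any base. It occurred in 3.44% of 32851 promoters and in 3.75% of 10906 tested genes with an entry. Of the 30 interferon-stimulated genes with an entry, 17 held it (56.7%). It was also in 14 of the 133 genes with an entry that were more than 2-fold higher without overlap (10.5%). These 14 include interferon-stimulated genes such as Ifit3, so this share is not separate from that of the list. Ifit1 and Ifit3 are printed because both carry it more than once, and Apol10b, an apolipoprotein L gene that no list holds, because it is among the 14. Apol10b, chosen after its values were seen, stood at 3.31, 1.05 and 1.5 CPM in WT and 9.42, 7.17 and 11.6 in KI/KI hearts (log2 fold change 2.28, standard error 0.38, adjusted p = 9.1e-06). Capitals mark the core, and each promoter is given 5′ to 3′ on the strand of its gene.
Ifit1, chr19:34640639-34640938, plus strand: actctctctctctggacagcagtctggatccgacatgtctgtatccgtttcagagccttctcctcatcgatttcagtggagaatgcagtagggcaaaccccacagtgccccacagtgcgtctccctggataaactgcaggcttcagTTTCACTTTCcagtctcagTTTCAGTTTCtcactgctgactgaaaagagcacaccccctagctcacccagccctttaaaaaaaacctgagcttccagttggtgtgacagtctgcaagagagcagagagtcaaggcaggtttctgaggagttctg
Ifit3, chr19:34583279-34583578, plus strand: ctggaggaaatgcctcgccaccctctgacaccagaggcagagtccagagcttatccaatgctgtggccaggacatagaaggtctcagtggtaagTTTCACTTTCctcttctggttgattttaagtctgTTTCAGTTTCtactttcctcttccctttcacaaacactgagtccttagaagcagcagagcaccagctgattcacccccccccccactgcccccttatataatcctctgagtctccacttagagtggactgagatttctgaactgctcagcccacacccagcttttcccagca
Apol10b, chr15:77596076-77596375, minus strand: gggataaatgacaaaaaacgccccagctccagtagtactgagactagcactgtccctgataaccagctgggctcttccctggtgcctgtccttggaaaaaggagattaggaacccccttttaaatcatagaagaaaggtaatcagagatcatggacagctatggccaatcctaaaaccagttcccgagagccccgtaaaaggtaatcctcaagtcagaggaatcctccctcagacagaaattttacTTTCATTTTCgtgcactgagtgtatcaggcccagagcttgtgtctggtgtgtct
A match of these letters is a description of the window and not a measured binding site.

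The smallest p of all genes, with both edgeR and DESeq2, belonged to Lgals1, which encodes the secreted lectin galectin-1. Its fold change was below 2, and it was named after its values were seen. Lgals1 stood at 95.4, 98.8 and 94.7 CPM in WT and 148, 159.7 and 156 in KI/KI hearts (log2 fold change 0.68, standard error 0.06, adjusted p = 2.9e-20, and 0.101 with edgeR). The hearts of each genotype were close to each other and the groups far apart. Tmem181b-ps, a pseudogene of chromosome 17 whose reads its close relatives can share, stood at 25.4, 25.8 and 27.5 against 38.4, 41.9 and 41 CPM (0.62, standard error 0.06, adjusted p = 1.4e-09), and Mif4gd, which encodes a partner of the histone mRNA binding protein SLBP, at 29.6, 30.3 and 28.4 against 19.5, 18.4 and 21 CPM (-0.59, standard error 0.07, adjusted p = 1.5e-06). Both were likewise named after their values were seen and were as even.

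Among genes with a fold change above 2 the smallest p was that of AA465934, which lies near the Schlafen genes on chromosome 11, and part of that cluster stood higher with it. AA465934 stood at 0.59, 0.62 and 0.69 CPM in WT and at 5.63, 9.01 and 4.71 in KI/KI hearts (log2 fold change 3.35, standard error 0.33, adjusted p = 8.1e-20, and 0.136 with edgeR). Slfn1, one of the Schlafen genes known as regulators of lymphocyte growth, stood at 0.28, 0.22 and 0.22 against 0.82, 1.04 and 0.95 CPM (1.97, standard error 0.27, adjusted p = 0.0021). Slfn1 was close over the 3 KI/KI hearts, while AA465934 was highest in heart 5. The rest of the cluster, added after its values were seen, did not move together. Slfn2, Slfn4 and Slfn10-ps were higher by 0.71, 1.39 and 1.18 on the log2 scale without overlap. Slfn3, Slfn5 and Slfn9 differed by 0.16, 0.16 and 0.27 with groups that overlapped, and Slfn8, at 3.99, 3.08 and 4.90 against 4.71, 2.40 and 4.68 CPM, overlapped as well.

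Class I histocompatibility genes, which present peptides to T cells, stood higher as well. All 12 tested members of the class I and antigen processing list had higher means, with a median of 0.48. Of these, 9 of 12 lay above the WT range (75.0%, against 11.5% of all genes). B2m, the shared light chain, stood at 206, 187 and 209 CPM in WT and 265, 352 and 321 in KI/KI hearts (0.64, standard error 0.11, adjusted p = 8.4e-05). The heavy chain gene H2-Q4 stood at 30.7, 31.4 and 31.6 against 41.5, 49.2 and 45.5 CPM (0.54, standard error 0.07). Class II genes, carried by antigen-presenting cells, were different. None of 8 left the WT range in all KI/KI hearts, and their summed level was 113.5, 117.4 and 216.7 CPM in WT against 191.6, 122.4 and 192.4 in KI/KI hearts. Of these, 6 of 8 lay above the WT hearts without WT heart 3, where 21.4% of all genes did. The lymphocyte list behaved alike, with 1 of 7 above the WT hearts (14.3%, against 11.5% of all genes) and, without WT heart 3, 7 of 8.

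The histocompatibility genes lie on chromosome 17, as does Lemd2, and genes near the edited site were examined apart. Of 33 tested genes within 1 Mb of the Lemd2 start, 2 lay above all WT hearts (6.06%) and 6 below (18.2%). Between 1 and 5 Mb the counts were 10 and 25 of 150 (6.67% and 16.7%), between 5 and 10 Mb 20 and 14 of 171 (11.7% and 8.19%), and beyond 20 Mb 20 and 21 of 228 (8.77% and 9.21%). The background was 11.5% above and 11% below. Zfp523, a zinc finger gene within this region, was steady in both groups at 20.3, 19.4 and 19.8 against 16.2, 15.6 and 14.4 CPM (-0.37, standard error 0.07, adjusted p = 0.010). Cpne5, a calcium-dependent membrane-binding protein, stood at 8.38, 7.47 and 8.24 against 4.71, 1.97 and 3.58 CPM (-1.25, standard error 0.28). H2-Q5, H2-T23 and H2-T24 were higher by 1.05, 0.59 and 0.54 on the log2 scale, H2-K1 by 0.49, and the receptor gene Paqr4 by 0.25. Whether alleles linked to the edited site contribute to these values was not tested.

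**Figure D3:**
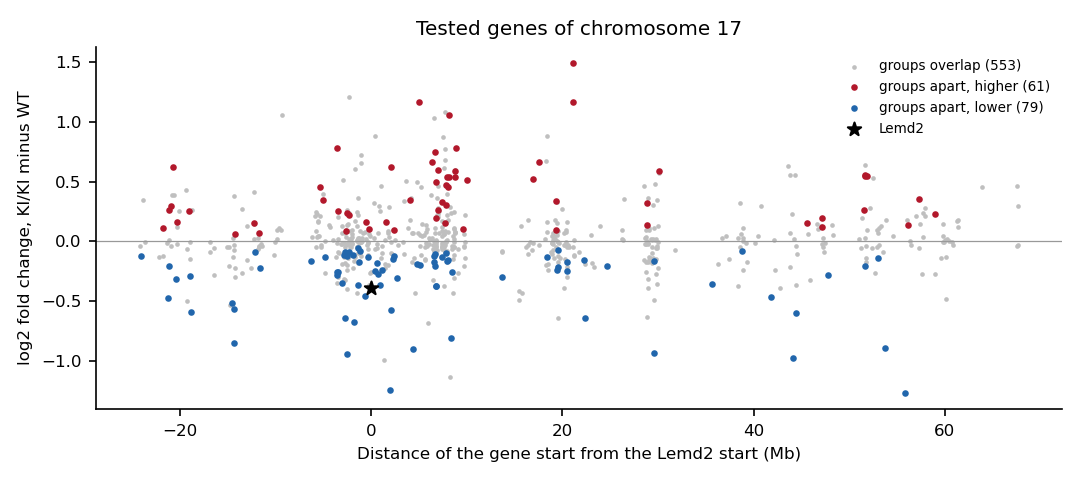
log2 fold change, KI/KI minus WT, of the tested genes of chromosome 17 (vertical axis) against the distance of the gene start from the start of Lemd2 in Mb. Coloured points are genes whose groups did not overlap, 61 higher and 79 lower, and the star is Lemd2 itself at -0.39.

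Other genes among the 10 with the smallest p in the higher direction were Shmt1, Edn3, Shisa3, Tspan17 and Cldn23. Shmt1, the cytosolic enzyme that feeds one-carbon units from serine into folate, stood at 6.82, 8.04 and 9.86 CPM in WT and 18, 15.9 and 21.4 in KI/KI hearts (1.16, standard error 0.16, adjusted p = 7.4e-07). Its lowest KI/KI value was that of heart 5. Edn3, a vasoactive peptide of the endothelin family, stood at 2.15, 1.75 and 2.40 against 4.68, 6.91 and 7.61 CPM (1.60, standard error 0.23, adjusted p = 6.1e-07). Shisa3, an antagonist of Wnt and FGF signalling, stood at 2.83, 2.24 and 3.9 against 8.2, 10.03 and 6.71 CPM (1.47, standard error 0.23). The tetraspanin Tspan17 stood at 8.86, 7.83 and 8.63 against 13.6, 21.1 and 17 CPM (1.03, standard error 0.16). Nlrc3, a member of the NOD-like receptor family, and Aqp8, a water channel, were named after their values were seen. Nlrc3 stood at 1.5, 1.19 and 2.23 against 4.79, 12.8 and 7.48 CPM (2.35, standard error 0.42, adjusted p = 1.5e-06) and Aqp8 at 0.91, 0.62 and 1.35 against 3.25, 8.73 and 12 CPM (3.04, standard error 0.55, adjusted p = 2.8e-07), both with lower values in heart 4 than in hearts 5 and 6. Tbx15, a T-box transcription factor, and Aldh1a2, the retinoic acid synthase of the epicardium, are named as members of lists. Tbx15 stood at 0.65, 0.81 and 1.13 against 1.61, 4.55 and 3.95 CPM (1.96, standard error 0.44, adjusted p = 0.00139). Aldh1a2 stood at 5.21, 3.72 and 7.58 against 8.78, 10.6 and 11.6 CPM (0.90, standard error 0.25, adjusted p = 0.0267). Cldn23, a claudin, was near the floor in WT hearts, at 0.11, 0.08 and 0.10 CPM, and at 0.42, 0.48 and 0.48 in KI/KI hearts.

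The lower genes are described next by single members, of which Ramp1 and Nos1 are among the 10 with the smallest p. Ramp1, the partner that turns the calcitonin receptor-like receptor into the receptor for CGRP, stood at 10.8, 9.39 and 9.02 CPM in WT and 4.95, 3.75 and 5.08 in KI/KI hearts (-1.09, standard error 0.15, adjusted p = 1.2e-06). Calcrl, the receptor it pairs with, named after its values were seen, went the other way by 0.28 (standard error 0.07, adjusted p = 0.045), with groups that did not overlap. Nos1, the neuronal nitric oxide synthase, stood at 1.44, 2.02 and 2.01 against 0.40, 0.50 and 0.75 CPM (-1.74, standard error 0.28, adjusted p = 4.7e-04). Dbh, which converts dopamine into noradrenaline, stood at 9.46, 8.61 and 6.08 against 4.26, 1.69 and 1.40 CPM (-1.73, standard error 0.40, adjusted p = 0.0030). For Ddc, the preceding enzyme, the values were 13.4, 6.10 and 5.49 against 4.71, 1.45 and 5.03 CPM (adjusted p = 0.18).

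Ion channel genes were described in the same way. Scn10a, the sodium channel Nav1.8, stood at 6.71, 6.93 and 8.46 CPM in WT and 3.49, 1.65 and 2.85 in KI/KI hearts (-1.49, standard error 0.26, adjusted p = 8.4e-05). Scn4a, the skeletal muscle sodium channel, named after its values were seen, was lower by 0.73 on the log2 scale (standard error 0.14). Cacna1g, a T-type calcium channel of pacemaker cells, was even in both groups at 60.5, 57.9 and 59.4 against 40.3, 42.0 and 33.4 CPM (-0.62, standard error 0.09, adjusted p = 8.4e-06). Cntn2, a marker of Purkinje fibres, stood at 27.6, 24.7 and 44.3 against 15.0, 10.4 and 10.9 CPM (-1.41, standard error 0.25, adjusted p = 8.5e-06). Hcn4, the pacemaker current, stood at 19.3, 16.4 and 22.5 against 14.5, 7.64 and 8.56 CPM (-0.93, standard error 0.25).

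The conduction system list as a whole had 6 of 14 tested members below all WT hearts (42.9%, against 11% of all genes) and 0 above, with a median of -0.33. Without WT heart 3, 6 lay below and 3 above, where 21.5% and 21.4% of all genes did, and without KI/KI heart 4 the median was -0.21. DESeq2 called 4 of them, and the connexin Gja5 was not one, at 32.0, 25.0 and 39.5 CPM in WT and 22.1, 37.7 and 25.9 in KI/KI hearts. Its score was not graded like those above, at -0.26, -0.26 and -0.34 in hearts 4, 5 and 6, while WT hearts stood at -0.11, -0.21 and 0.32. Potassium channels had 7 of 22 members below the WT range (31.8%, against 11% of all genes) and 0 above. Without KI/KI heart 5 their median of -0.25 became -0.16, and without KI/KI heart 4, 12 of 22 lay below, where 19.9% of all genes did. Kcnj5, a subunit of the channel opened by acetylcholine, was lower by 0.35 (standard error 0.09). Kcne1, an accessory subunit of the slow delayed rectifier, stood at 5.27, 5.5 and 5.93 against 3.39, 5 and 3.38 CPM (-0.50, standard error 0.18, adjusted p = 0.175). The homeobox gene Irx2 stood at 5.61, 8.71 and 9.17 against 3.86, 0.91 and 2.20 CPM, and its relative Irx3, a factor of the Purkinje system, at 29.4, 27.7 and 38.2 against 39.8, 38.1 and 37.2.

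Genes that move calcium in and out of the sarcoplasmic reticulum lay mostly below WT. Of 29 tested members of the calcium cycling list, 25 had lower means, 12 lay below all WT hearts (41.4%), 1 above, and the median was -0.30. Without WT heart 3, 22 of 29 lay below the WT hearts, where 21.5% of all genes did. Of 3 further members named after their values were seen, the main cardiac pump Atp2a2 and its regulator Pln were lower by 0.31 (standard error 0.15) and 0.27 (0.14) without overlap, and neither passed in DESeq2 (adjusted p = 0.11 and 0.23). The release channel Ryr2 overlapped between the groups, at 4391, 3480 and 3032 against 3047, 2499 and 2688 CPM. Casq2, the cardiac calcium-binding protein of the store, was the member above the WT range, by 0.20 (0.08). The larger differences were in genes better known from skeletal muscle or neurons. Atp2a1, the fast skeletal muscle pump, stood at 13, 9.39 and 6.64 against 2.41, 2.49 and 3.93 CPM (-1.71, standard error 0.30, adjusted p = 1.1e-05).

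Pcp4, a calmodulin-binding protein of Purkinje cells of heart and brain, stood at 0.74, 0.62 and 1 CPM in WT and 0.19, 0.043 and 0 in KI/KI hearts, where 1 heart was at 0 and the others near the floor (adjusted p = 0.00381). Adcy8, a calcium-stimulated adenylyl cyclase, stood at 2.12, 1.75 and 2.43 against 1, 0.48 and 0.68 CPM (-1.57, standard error 0.28, adjusted p = 0.0019). Neither overlapped between the groups. Ppp1r1b, an inhibitor of protein phosphatase known as DARPP-32 and named after its values were seen, stood at 12, 8.47 and 9.41 against 4, 4.07 and 5.81 CPM (-1.11, standard error 0.20, adjusted p = 1.7e-04).

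The fast skeletal muscle list itself did not move as one. Casq1 stood at 26.7, 45.9 and 26.9 CPM in WT and 14.9, 12.5 and 15.7 in KI/KI hearts, and Tnni2, the fast inhibitory troponin, at 1.81, 2.32 and 1.27 against 0.85, 0.37 and 0.58. Ryr1, the skeletal release channel, was higher, at 0.42, 0.30 and 0.91 against 2.73, 1.75 and 2.15 CPM (1.98, standard error 0.38, adjusted p = 0.0014). In all, 3 of 11 members lay below the WT hearts (27.3%, against 11% of all genes) and 2 above (18.2%, against 11.5%).

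In the list of genes of developing and denervated skeletal muscle, 3 of 8 tested members lay above all WT hearts (37.5%) and 0 below. Without WT heart 3 this was 6 of 9 and 1, where 21.4% and 21.5% of all genes did. Chrna1, the muscle acetylcholine receptor subunit, stood at 0.03, 0.03 and 0.10 CPM in WT, at or near the floor, and at 0.29, 0.56 and 0.68 in KI/KI hearts (adjusted p = 0.012). Vgll2, a transcription cofactor of muscle, stood at 0.06, 0.08 and 0.10 against 0.85, 5.13 and 1.95 CPM (adjusted p = 3.6e-07). Myh8, the perinatal myosin, stood at 0.45, 0.22 and 0.37 against 0.82, 2.47 and 1.10 CPM. The other 5 tested members of the list overlapped between the groups.

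Stretch and hypertrophy genes had 8 of 17 members above all WT hearts (47.1%) and 0 below, and without KI/KI heart 4 12 of 17 (21.7% of all genes). Acta1, the skeletal actin re-expressed in strained hearts, stood at 190.3, 188 and 218 CPM in WT and 396, 1567 and 1188 in KI/KI hearts (2.40, standard error 0.46, adjusted p = 1.5e-04). All 3 KI/KI hearts exceeded the WT hearts, heart 4 least. Nppa, the atrial natriuretic peptide, stood at 1720, 1962 and 1952 against 2327, 6770 and 4153 CPM, and Xirp2, an actin-binding protein of the intercalated disc, at 1312, 1386 and 1208 against 1653, 2161 and 2260. Nppb, the B-type natriuretic peptide, stood at 94.5, 92.3 and 143 against 214, 543 and 449 CPM (1.87, standard error 0.36, adjusted p = 1.2e-06). The myosin gene Myh7 did not follow, since it overlapped at 871, 1449 and 1395 against 1269, 1477 and 927 CPM. Myh6 was lower without overlap, at 38380, 38150 and 35850 against 33720, 24240 and 29530 CPM (-0.36, standard error 0.17, adjusted p = 0.10).

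A pair of ribosomal paralogues differed in opposite directions. Rpl3, part of the ribosome of most cells, stood at 85.7, 92.4 and 99.2 CPM in WT and 128, 163 and 134 in KI/KI hearts (0.62, standard error 0.11, adjusted p = 1.1e-04). Rpl3l, its form restricted to striated muscle, stood at 268, 253 and 198 against 170, 67.7 and 135 CPM (-0.95, standard error 0.32, adjusted p = 0.035). Neither gene overlapped between the groups, and the departure of both was largest in heart 5. The whole cytosolic ribosome list had a median of -0.07, with 2 of 80 members above the WT range (2.5%, against 11.5% of all genes) and 5 below (6.25%, against 11%).

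**Figure D4:**
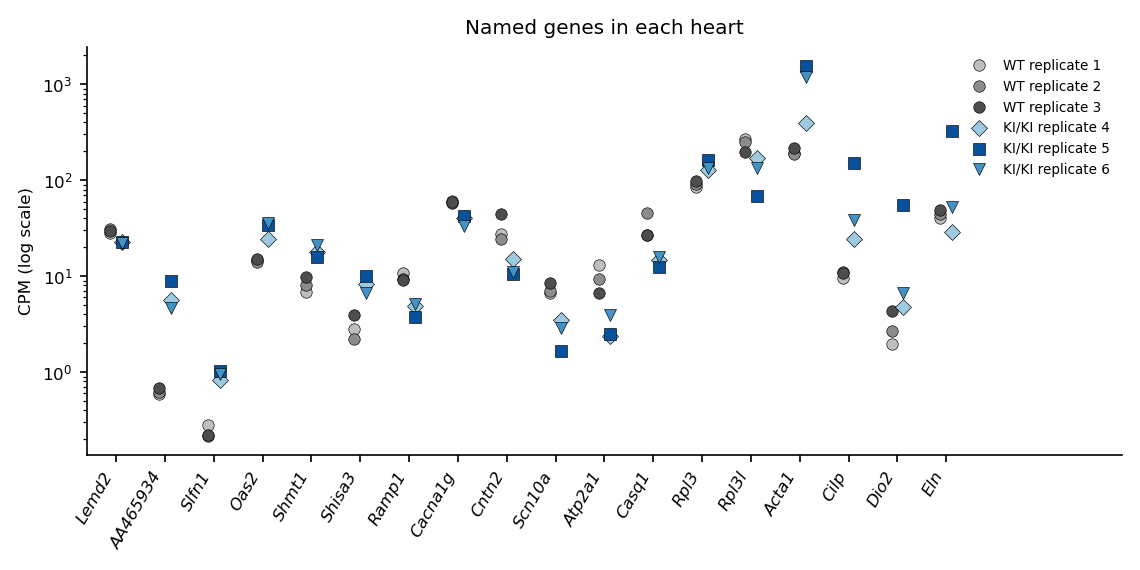
CPM of 18 genes in each heart, on a logarithmic vertical axis, with WT hearts as circles at left of each name and KI/KI hearts 4 (diamonds), 5 (squares) and 6 (triangles) at right. Lemd2, Slfn1, Cacna1g and Casq1 were close over the KI/KI hearts, while Acta1, Cilp, Dio2 and Eln were highest in heart 5.

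Fibroblast and matrix genes were unevenly spread over the KI/KI hearts. All 16 tested markers of resting fibroblasts had higher means, with 8 above all WT hearts, and activated fibroblast markers had 9 of 18 above and a median of 1.12. Without KI/KI heart 5 the medians were 0.29 for resting and 0.61 for activated fibroblast markers. Without KI/KI heart 4, 13 of 16 and 12 of 18 lay above, and without WT heart 3, 13 of 16 and 11 of 18. Cilp, a matrix protein of activated fibroblasts, stood at 9.63, 10.9 and 10.9 CPM in WT and 24.7, 152 and 38.3 in KI/KI hearts (2.77, standard error 0.68, adjusted p = 0.016). Postn, periostin, stood at 63.9, 66.5 and 73.7 against 107, 396 and 149 CPM, and Thbs4, a thrombospondin, at 7.39, 8.69 and 7.26 against 13, 32.7 and 16.2. Timp1, an inhibitor of matrix metalloproteinases, stood at 1.42, 1.89 and 1.86 against 3.49, 10.1 and 5.23 CPM (1.88, standard error 0.42, adjusted p = 4.4e-04). The groups were apart for these genes, with heart 4 nearest to WT in each. Collagens as a class were less separated, with 6 of 38 above the WT range (15.8%, against 11.5% of all genes), 1 below and a median of 0.48. Without KI/KI heart 5 that median was 0.15, and without KI/KI heart 4, 23 of 38 lay above (21.7% of all genes) with a median of 0.68. Col8a1, a short-chain collagen, stood at 40.1, 54.3 and 44.5 against 62.7, 225 and 107 CPM, and Col4a3, a chain of basement membranes, at 13.9, 13.9 and 15.3 against 18.8, 56.6 and 25.6 CPM (1.23, standard error 0.39, adjusted p = 0.019). In whole hearts, fewer cells of a type and less RNA per cell cannot be told apart. The cardiomyocyte list had scores of -0.05, -0.32 and -0.12 in hearts 4, 5 and 6. WT hearts 1, 2 and 3 stood at 0.05, 0.05 and -0.10, so only heart 5 lay well below every WT heart. Of its 18 members, 4 lay below all WT hearts (22.2%, against 11% of all genes), and DESeq2 called 0.

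Heart 5 also held genes in which it stood alone. In 97 genes it was more than 2-fold above all 5 other hearts and in 55 more than 2-fold below, against 0 and 7 in heart 4 and 5 and 5 in heart 6. WT hearts 1 and 2 had 8 and 4 genes above and 43 and 48 below, so the number below in heart 5 was close to those of single WT hearts. Dio2, the enzyme that activates thyroid hormone, stood at 1.98, 2.7 and 4.34 CPM in WT and 4.82, 54.6 and 6.76 in KI/KI hearts. Eln, elastin, chosen after its values were seen, stood at 40.5, 44.1 and 48.6 against 29.0, 325 and 52.7 CPM. Uts2b, a urotensin-related peptide, likewise chosen, stood at 0.91, 0.84 and 0.52 against 0.37, 8.86 and 1.78 CPM. WT heart 3, with its adipocyte and lung transcripts, held 59 genes above all others and 4 below.

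Signals between cells were described by the growth factor and cytokine lists. Gdf15, a stress cytokine, stood at 0.2, 0.19 and 0.76 CPM in WT and 2.73, 12.2 and 7.88 in KI/KI hearts (4.26, standard error 0.75, adjusted p = 2.1e-08). The groups lay far apart, and heart 5 was highest. Nrg1, the neuregulin that acts on cardiomyocytes, stood at 0.88, 0.65 and 1.20 against 2.91, 7.12 and 2.75 CPM (2.23, standard error 0.49, adjusted p = 2.1e-04). Tgfb2, a ligand of the TGF-beta family, stood at 17.9, 18.1 and 19.5 against 26.4, 50.6 and 37.8 CPM (1.05, standard error 0.22). Igfbp3, a binding protein of insulin-like growth factors, was lower and even, at 50.6, 49.6 and 53.6 against 40.3, 35.6 and 40.4 CPM (-0.40, standard error 0.07, adjusted p = 0.0017). Of 39 tested growth factors and receptors, 7 lay above all WT hearts (17.9%, against 11.5% of all genes) and 2 below (5.13%, against 11%), with a median of 0.00.

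Macrophage markers stood higher in all 3 KI/KI hearts. Of 16 tested members, 10 lay above all WT hearts (62.5%) and 0 below, with a median of 0.56, and without WT heart 3 this was 15 of 16, where 21.4% of all genes lay above. Fcgr1, an antibody receptor, stood at 1.47, 1.59 and 2.16 CPM in WT and 3.15, 5.07 and 3.63 in KI/KI hearts (1.18, standard error 0.25, adjusted p = 0.0033). Lgals3, galectin-3, stood at 4.08, 1.78 and 2.35 against 5.56, 27.6 and 13 CPM. Cd68, a lysosomal protein of macrophages, stood at 9.17, 6.37 and 7.67 against 11, 13.1 and 10.5 CPM (0.58, standard error 0.15, adjusted p = 0.0452), and F13a1, a transglutaminase of resident macrophages, at 55, 43.6 and 65.1 against 77.4, 95.4 and 75 CPM (0.60, standard error 0.16, adjusted p = 0.0208). Both were separated between the groups by small gaps. Of the chemokines that attract monocytes, Ccl8 stood at 0.4, 0.24 and 0.83 against 0.95, 1.93 and 1.65 CPM and Ccl12 at 0.76, 1.32 and 1.08 against 1.8, 3.05 and 1.85 CPM, and the interferon-induced Cxcl10 at 0.34, 0.27 and 0.27 against 0.34, 0.91 and 1.08 CPM, none of which passed in DESeq2 (adjusted p = 0.0619, 0.0646 and 0.176). The chemokine Cxcl14 went the other way, at 16.4, 18.1 and 21 against 10.3, 6.69 and 11.6 CPM (-0.97, standard error 0.20, adjusted p = 0.0017).

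Of 17 tested genes of complement and the acute phase, 5 lay above all WT hearts (29.4%, against 11.5% of all genes) and 0 below, with a median of 0.57. Leaving out WT heart 3, 12 of 17 lay above, where 21.4% of all genes did, and without KI/KI heart 5 the median was 0.22. C7, a component of the membrane attack complex, stood at 23.3, 15.6 and 8.14 CPM in WT and 42.4, 42.8 and 33.1 in KI/KI hearts (1.33, standard error 0.34, adjusted p = 0.00381). The protease inhibitor Serpina3n stood at 8.72, 7.15 and 6.57 against 13.8, 28 and 13.7 CPM (1.31, standard error 0.31, adjusted p = 0.0014). The WT hearts varied widely for C7, yet none reached the lowest KI/KI heart.

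Genes of mitochondrial energy metabolism mostly had lower means but overlapping groups. Of 79 tested nuclear genes of oxidative phosphorylation, 77 had lower means in KI/KI hearts, with a median of -0.23, but 7 lay below all WT hearts (8.86%, against 11% of all genes). In heart 4 only 8 of the 79 were below every WT heart, in heart 5 76 and in heart 6 64. Over all genes these shares were 23.4%, 33.7% and 27.9% in hearts 4, 5 and 6. Without KI/KI heart 4, 63 of 80 lay below the WT hearts (19.9% of all genes), and without WT heart 3, 72 of 80 (21.5% of all genes). Sdhc, a subunit of succinate dehydrogenase, stood at 578, 558 and 485 CPM in WT and 468, 339 and 385 in KI/KI hearts (-0.44, standard error 0.13, adjusted p = 0.049). Sdha, the catalytic subunit of the same enzyme, stood at 1955, 2080 and 1863 against 1726, 1059 and 1474 CPM, and Atp5e, a subunit of ATP synthase, at 257, 243 and 215 against 206, 163 and 184 CPM, both apart between the groups with an adjusted p of 0.114 and 0.0619 in DESeq2. Ppara, the receptor that controls fatty acid use, overlapped at 207, 234 and 180.3 against 180.4, 131 and 149.5 CPM. The tricarboxylic acid cycle (median -0.24, 2 of 21 below, 9.52%), branched-chain amino acid and ketone use (-0.26, 4 of 20 below, 20.0%) and mitochondrial ribosome lists (-0.12, 8 of 74 below, 10.8%) were alike. Over all genes 11% lay below. Without WT heart 3 these counts were 19 of 21, 14 of 20 and 45 of 74 (21.5% of all genes), and without KI/KI heart 4 14 of 21, 16 of 20 and 28 of 74 (19.9% of all genes). Glycolysis genes differed from these lists, with 10 higher and 13 lower means, a median of -0.02, 1 of 23 above the WT range and 2 below.

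Mitosis and clock genes set heart 5 apart without separating the genotypes. Of 28 mitosis genes, 27 lay above every WT heart in KI/KI heart 5, 0 in heart 4 and 2 in heart 6, and 0 did so in all 3. Over all genes the shares were 36.8% in heart 5, 21.9% in heart 4, 28.9% in heart 6 and 11.5% in all 3. The exception on the list in heart 5 was Cenpf, a kinetochore protein, at 83.9, 69.2 and 51 CPM in WT and 57.1, 19.8 and 17.6 in KI/KI hearts, with groups that overlapped. Pttg1, the securin gene, is not on the list and was lowest in heart 5, as given in the closing section. WT heart 1 itself had a score of 0.47. Genes of the day-phase arm of the clock, whose level depends on the hour of collection, had a score of -0.66 in heart 5, against 0.06 in heart 4 and -0.05 in heart 6. In heart 5, 10 of 13 lay below every WT heart, where 33.7% of all genes did. The night-phase arm, with 6 tested genes, had scores of -0.01, 0.35 and 0.11 in hearts 4, 5 and 6. In heart 5, 3 of these 6 lay above every WT heart and 3 below. Mcm2, a subunit of the replicative helicase, stood at 9, 9.53 and 11.2 against 12.2, 16.2 and 15.6 CPM (0.56, standard error 0.14, adjusted p = 0.026), with groups that did not overlap. It belongs to the DNA replication list, of which 4 of 21 lay above all WT hearts (19%, against 11.5% of all genes) and 0 below. Hlf, an output gene of the clock, stood at 126, 136 and 104 CPM in WT and 106, 35.6 and 84.7 in KI/KI hearts. The hour at which each heart was taken was not among the labels, and its part in these values was not tested.

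Other lists had small median differences, or differed in single members or in only some of the hearts. The nuclear envelope list had a median of -0.03, with 4 of 27 members above the WT range (14.8%) and 7 below (25.9%), Lemd2 included. Over all genes these shares were 11.5% and 11%. Among the members of this list the lamina gene Lmna overlapped at 94.4, 112 and 102 against 109, 140 and 124 CPM. Emd, which encodes emerin and was named after its values were seen, was lower by 0.11 (standard error 0.06) and Tmem43 higher by 0.44 (0.14). Lemd3, which encodes the related LEM protein MAN1 and was named after its values were seen, overlapped at 34.4, 36 and 30.4 against 29.6, 27.7 and 30.8 CPM. The heat shock list did not have the common order of hearts. Its scores were 0.29, 0.01 and 0.35 in hearts 4, 5 and 6. In these hearts 11, 6 and 12 of 17 members lay above every WT heart, against 21.9%, 36.8% and 28.9% of all genes. In all 3 hearts 4 of 17 were above (23.5%, against 11.5% of all genes), and without KI/KI heart 5 10 of 17, where 14.3% of all genes were. The smallest p was that of Hsph1 at 75.0, 87.4 and 80.7 against 111, 110 and 128 CPM (0.52, standard error 0.09, adjusted p = 2.8e-04). Hspb1, a small heat shock protein, stood at 61.2, 68.4 and 58.6 against 75.2, 88 and 96.7 CPM (0.47, standard error 0.11, adjusted p = 0.0141). Rrp12, a factor of ribosome assembly, stood at 26.9, 33.9 and 26.5 against 40.2, 55.6 and 51 CPM (0.75, standard error 0.15, adjusted p = 8.5e-04). Hist1h1c, a linker histone, differed by little but without overlap, at 29.3, 27.3 and 30.4 against 34.6, 37.7 and 35.4 CPM (0.31, standard error 0.07, adjusted p = 0.027). Proteasome genes had small differences, 27 higher and 11 lower in their means, at a median of 0.05. Of 38 members 14 lay above the WT range (36.8%, against 11.5% of all genes), and DESeq2 called 0 of the list. Medians were -0.02 for hypoxia genes, 0.07 for endoplasmic reticulum chaperones and -0.03 for imprinted genes. The 329 tested zinc finger genes had 14 above the WT range (4.25%) and 39 below (11.8%), and of 1432 olfactory and vomeronasal receptor genes only 9 passed the filter on low counts. The other 30 lists had medians between -0.40 (metallothionein and glucocorticoid targets) and 0.46 (matrix turnover) where 5 or more members were tested.

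At the ends of the scale, the rule for named genes picked those with the least and the most spread over the KI/KI hearts among genes with a fold change above 2. The most level were Cldn23, Gm15713, Rbm46, A730020E08Rik and Ccdc63. Ccdc63 stood at 3.51, 3.70 and 7.16 CPM in WT and 10.7, 11.4 and 11.5 in KI/KI hearts, and Gm15713 at 0.71, 0.67 and 0.52 against 0.27, 0.24 and 0.25. The most spread were Dio2, Cacng6, 2210407C18Rik, Selenbp2 and Ccnb1ip1. Cacng6, an auxiliary calcium channel subunit, stood at 5.01, 7.29 and 3.02 against 0.40, 0.11 and 1.78 CPM. Selenbp2 stood at 2.29, 3.10 and 2.40 against 0.03, 0.07 and 1.5, and Ccnb1ip1 at 0.82, 0.89 and 1.69 against 0.77, 0 and 0.03. Here the heart with the least departure was heart 6 for Cacng6 and Selenbp2 and heart 4 for Ccnb1ip1 and 2210407C18Rik. The remaining genes of the lower 10 were Sema6c, Abcd2, Gm19277, Sel1l3, Cep128 and Rps6ka6, with log2 fold changes from -1.52 to -1.17.

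The adult KI/KI effect was set against that of cardiomyocyte deletion of Lemd2 at postnatal day 1, in 1 fit of all 12 libraries with a term for the difference. The term passed an adjusted p of 0.05 in 383 of 15729 genes (edgeR's quasi-likelihood test, 2.43%). Of the 41 interferon-stimulated genes, 1 passed it, and the medians of the list were 0.74 in KI/KI hearts and 0.12 in the deleted hearts. The 2 models differ in allele, in the cells affected and in age, which cannot be told apart here. The named genes that passed are given in the closing section.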

How the data were processed

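Poly(A) RNA from whole hearts was sequenced by the authors in single-end libraries, 1 per mouse. After adapter trimming (Trim Galore), the authors mapped reads with STAR 2.7.2b (genome mm10) and counted per gene with HTSeq (tools and versions from the submitters' processing notes, which also list SAMtools 1.9). The deposited values are raw counts per gene symbol, with no normalization. The strand setting of the counting is not given in the sources used here, so reads of overlapping antisense genes cannot be separated.

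For the 6 adult hearts, edgeR 4.0.16 (R 4.3.3) was used on the counts: genes were filtered with filterByExpr, libraries scaled by TMM, and groups compared by the quasi-likelihood test (robust estimation, Benjamini-Hochberg adjustment). Scores and departures use log2 CPM with a prior count of 2. DESeq2 1.42.0 and limma 3.58.1 (voom) were alternatives, as were RLE size factors, an unfiltered table, a minimum of 10 counts per library throughout, a fit of all 12 libraries, non-robust estimation, Xist and Y-linked genes left out, and each heart left out. Legacy quasi-likelihood estimation, and list counts without WT heart 3, KI/KI heart 4 or KI/KI heart 5, were added after seeing the data. The scripts were tested on simulated data. Replicates differed beyond sampling noise: the chi-square per degree of freedom between pairs was 17.7 to 77.4, so each library was counted as a sample. Groups came from the genotype labels.

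Named genes were Lemd2, in each direction the 10 with the smallest edgeR p among those with a fold change above 2 and groups that did not overlap, the 5 most and the 5 least spread over the KI/KI hearts among these, up to 4 per list and up to 8 within 10 Mb of Lemd2. The members and lists were chosen with earlier results of these data known. Positions came from GENCODE vM21 (GRCm38) and RefSeq, and 99.4% of symbols had one. Some items withheld for evaluation are not reported here.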

Additional observations from a re-analysis of the deposited data

Results flagged for a closer look

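In 10 named genes the adult KI/KI effect differed from the effect of cardiomyocyte deletion at postnatal day 1, by the term for the difference in edgeR's quasi-likelihood fit of all 12 libraries (383 of 15729 genes at an adjusted p under 0.05, 2.43%). For AA465934 the difference on the log2 scale was 3.76 (adjusted p = 0.012), from 3.35 in the adult and -0.42 in the day 1 comparison. For Shmt1 it was 1.19 (adjusted p = 0.018), from 1.16 and -0.04. The conduction marker Cntn2 differed by -2.36 (adjusted p = 0.031), from -1.41 and 0.94, and the calsequestrin Casq1 by -3.07 (adjusted p = 0.012), from -1.21 and 1.85. Sel1l3 differed by -1.66, from -1.52 and 0.13, and H2-T24 by 0.99, from 0.54 and -0.45. Xirp2 and Hsp90aa1 were higher in both comparisons, by 0.64 and 0.48 in the adult and by 2.87 and 1.19 at day 1, and differed by -2.25 and -0.71. Gm15713, which did not pass the filter on low counts in the day 1 comparison by itself, differed by -2.65. Tmem181b-ps differed by 0.95 (adjusted p = 0.0116), from 0.62 in the adult and -0.34 at day 1. The models differ in allele, cells affected and age, and these cannot be told apart.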

How the results depend on the processing

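No paired analysis was possible because WT hearts are numbered 1 to 3 and KI/KI hearts 4 to 6, so the groups share no number. At an adjusted p under 0.05, DESeq2 called 306 genes higher and 212 lower (110 and 47 with a fold change above 2), and the fit of all 12 libraries 33 and 15 (21 and 11). With 1 heart left out, edgeR called from 0 to 40 higher and from 0 to 16 lower (0 to 27 and 0 to 11 with a fold change above 2). The highest counts were those without KI/KI heart 4, and without KI/KI heart 5 there was 1 higher gene, also above 2-fold. Counts at an unadjusted p under 0.05 ran from 755 to 1817 higher and from 553 to 1455 lower, and were lowest without WT hearts 1 or 2 or KI/KI hearts 5 or 6 (755, 807, 819 and 864 higher for WT hearts 2 and 1 and KI/KI hearts 5 and 6). Genes with all KI/KI hearts beyond the WT hearts numbered 2105 to 3213 above and 1976 to 3164 below with 1 heart left out, the highest without KI/KI heart 4 or WT heart 3, where fewer hearts had to be separated. The share of higher genes with the largest departure in KI/KI heart 5 ran from 63.4% to 67.2% and that of lower genes from 55.3% to 69.9% with a WT heart left out, and the latter was 62.3% with RLE size factors. Of 1966 refits of single named genes, 0 changed direction, and 146 passed an adjusted p of 0.05 that the main fit did not pass. Many of these genes were named for a small p or for groups that did not overlap, which made a change of direction unlikely beforehand. Of 650 list medians, 71 moved by more than the spread of the list score over the KI/KI hearts. The other settings left the counts within 1.5 times. With 3 hearts per group and a single library from each, the order of the KI/KI hearts rests on 1 animal each.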

Other observations

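Several genes stood far apart in 1 or 2 hearts, most of them near 0 there and expressed in the rest. They were picked after their values were seen. Pttg1, which encodes the securin that holds sister chromatids together, stood at 61.0, 65.9 and 62.0 CPM in WT hearts and at 60.2, 4.16 and 30.6 in KI/KI hearts 4, 5 and 6. It was near one level in 4 hearts, lower in KI/KI heart 6 and lowest in heart 5. Gbp10, a guanylate-binding protein, stood at 0.58 CPM in KI/KI heart 5 and between 5.63 and 13 in the other 5 hearts. Sycp1, a protein of the meiotic chromosome axis, was at 0 in KI/KI heart 5 and between 0.73 and 3.03 elsewhere. E330017L17Rik was at 0 in KI/KI heart 4 and between 1.38 and 5.08 elsewhere, and Ly6c2, a surface marker of monocytes, stood at 0.16 there against 1.5 to 2.62. Gm3716 stood at 0.03 CPM in WT heart 1 against 1.29 to 2.89, and Atg4a was at 0 in WT heart 2 against 0.54 to 1.65. Hddc3 stood apart in the other direction, at 11.4 in KI/KI heart 6 against 2.86 to 3.75. The lower genes Selenbp2, Ccnb1ip1 and 2210407C18Rik, named in the text by rule, have values of the same kind, with the 0 or near-0 values among KI/KI hearts. The line was founded in hybrid B6C3F1 zygotes, so hearts may carry alleles of more than 1 strain at these genes, and the part of this in the values was not tested.

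Glucocorticoid targets ranged widely within each genotype. Fkbp5, a chaperone induced by the hormone, stood at 113, 50.7 and 17.5 CPM in WT and 35.1, 21.5 and 34.5 in KI/KI hearts, and Zbtb16 at 276, 311 and 104 against 154, 52.7 and 163. Adipocyte and lung genes marked single hearts: Lep stood at 3.75 CPM in WT heart 3 against 0.15 to 0.74 elsewhere, and Scgb1a1, the club cell secretory protein, at 85.9 in WT heart 3 and 30.3 in KI/KI heart 4 against 0 to 0.04 elsewhere.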
